A study of Homo sapiens with 6 samples.

Results

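The R-loops described here were the strand-assigned peaks that lay just inside protein-coding genes, on the strand of the gene. A peak was taken as a member when its midpoint fell more than 100 and at most 2000 bp downstream of the start of a protein-coding gene record, inside the gene, on the gene's strand, and more than 1000 bp from the gene's 3' end. By this rule 2450 of the 10231 peaks in untreated cells and 2701 of the 11085 peaks in treated cells were members, which is 23.9% and 24.4% of each list. The peaks came from strand-specific kethoxal-assisted single-stranded DNA sequencing (spKAS-seq) of wild-type HEK293T cells, a human embryonic kidney line, and the study asked whether N2-alkylated deoxyguanosine in the genome leads to more R-loops, and mapped where they lie. Cells were left untreated or were exposed to 10 µM N2-heptynyl-dG for 3 h, a modified nucleoside that cells can build into DNA, and both groups then received 5 mM N3-kethoxal for 10 min. There were 2 samples per condition and 2 inputs from untreated cells, but only 1 peak list per condition was used here. The spread between samples is therefore unknown, no test between the conditions was possible, and every interval below is a 95% interval that covers counting error over peaks or genes and nothing else.

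An R-loop forms when nascent RNA pairs with the template strand of the DNA behind the polymerase and leaves the non-template strand unpaired. N3-kethoxal reacts with guanines that are not base-paired, so that the displaced strand can be tagged, enriched and sequenced with its strand kept. R-loops are well known at the starts of active genes, where CpG islands, a guanine-rich non-template strand (a positive GC skew) and guanine runs able to fold into G-quadruplexes are all thought to favour them. The first exon and the beginning of the first intron, where promoter-proximal pausing and the first splicing decision take place, are the stretch examined here. Peak lists hold no expression values, so the identity of the line could not be checked against marker genes, and the lists do not state which physical DNA strand their strand letter marks.

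A few stretches of these peaks show what the motif counts below refer to. Each is printed 5′ to 3′ from GRCh37 (hg19), with runs of 3 or more G in capitals. A G-quadruplex motif was counted where 4 such runs followed each other with loops of 1 to 7 bases. The first group comes from untreated peaks that held many motifs on the peak strand and overlapped a treated peak. The treated peak was narrower at SLC38A2, where it did not reach the stretch shown, and at BUB3, where it covered only part of it. SLC38A2 encodes an amino acid transporter, PABPN1 the nuclear poly(A)-binding protein and BUB3 a spindle checkpoint protein. The stretch of PABPN1 lies in coding sequence of the first exon, and the others lie in the first intron.
SLC38A2, chr12:46766211-46766258, minus strand: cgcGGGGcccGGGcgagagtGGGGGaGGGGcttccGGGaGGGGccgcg
PABPN1, chr14:23790701-23790748, plus strand: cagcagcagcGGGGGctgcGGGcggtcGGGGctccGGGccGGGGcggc
BUB3, chr10:124914126-124914171, plus strand: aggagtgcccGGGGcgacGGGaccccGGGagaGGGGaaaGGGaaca

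The second group comes from the widest members found in 1 list only. PTBP1, a splicing regulator, held a peak in the treated list alone. CDC73, a subunit of the PAF1 elongation complex, and NDUFV1, a subunit of respiratory complex I, held one in the untreated list alone. These stretches all lie in the first intron.
PTBP1, chr19:798810-798857, plus strand: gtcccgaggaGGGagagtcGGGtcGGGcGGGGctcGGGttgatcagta
CDC73, chr1:193091544-193091591, plus strand: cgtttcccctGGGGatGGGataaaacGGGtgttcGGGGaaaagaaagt
NDUFV1, chr11:67374556-67374600, plus strand: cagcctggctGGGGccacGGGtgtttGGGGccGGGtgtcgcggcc

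Guanine-rich stretches also occurred without the motif, or on the strand opposite to the peak. The 100-bp window of highest skew in the member of ZNF146, a zinc-finger gene, held 50 G and 15 C in the first intron, while its loops are too long for the motif as defined. In SLIT2, which encodes a secreted guidance ligand of the ROBO receptors, the stretch shown lies on the strand opposite to the gene, in the first intron.
ZNF146, chr19:36706131-36706230, plus strand: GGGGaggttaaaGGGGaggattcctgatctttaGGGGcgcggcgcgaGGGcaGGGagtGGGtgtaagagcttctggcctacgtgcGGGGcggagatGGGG
SLIT2, chr4:20256376-20256426, minus strand: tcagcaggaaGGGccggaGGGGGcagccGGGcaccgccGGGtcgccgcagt

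Members were concentrated close to the near end of the window. The median midpoint lay 318 bp downstream of the start in the untreated list (quartiles 192 and 646) and 317 bp in the treated list (quartiles 190 and 611). Per 100 bp there were 617.3 members up to 250 bp and 18.2 beyond 1500 bp in untreated cells, and 693.3 and 19.2 in treated cells. The lower border of the window cut through the rising side of the distribution. On the gene strand, 430 untreated and 510 treated midpoints lay 0 to 99 bp from the start, just outside, and 663 and 745 lay at 100 to 199 bp. The upper border mattered little, since extending the window to 3000 bp gave 2553 and 2795 members.

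Peaks in the window were mostly on the gene strand, which the rule required of members. The gene strand held 2450 of the 2804 untreated peaks in the window, 87.4% (86.1 to 88.6%), and 2701 of 3140 treated peaks, 86.0% (84.8 to 87.2%). The remainder, 354 untreated and 439 treated peaks, lay on the opposite strand at the same distances. The share on the gene strand was 91.7% up to 250 bp and 81.3% beyond 1500 bp in the untreated list, and 90.7% and 78.1% in the treated list. Opposite-strand midpoints instead gathered upstream, with 392 untreated and 418 treated midpoints 201 to 300 bp before the start.

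**Figure D1:**
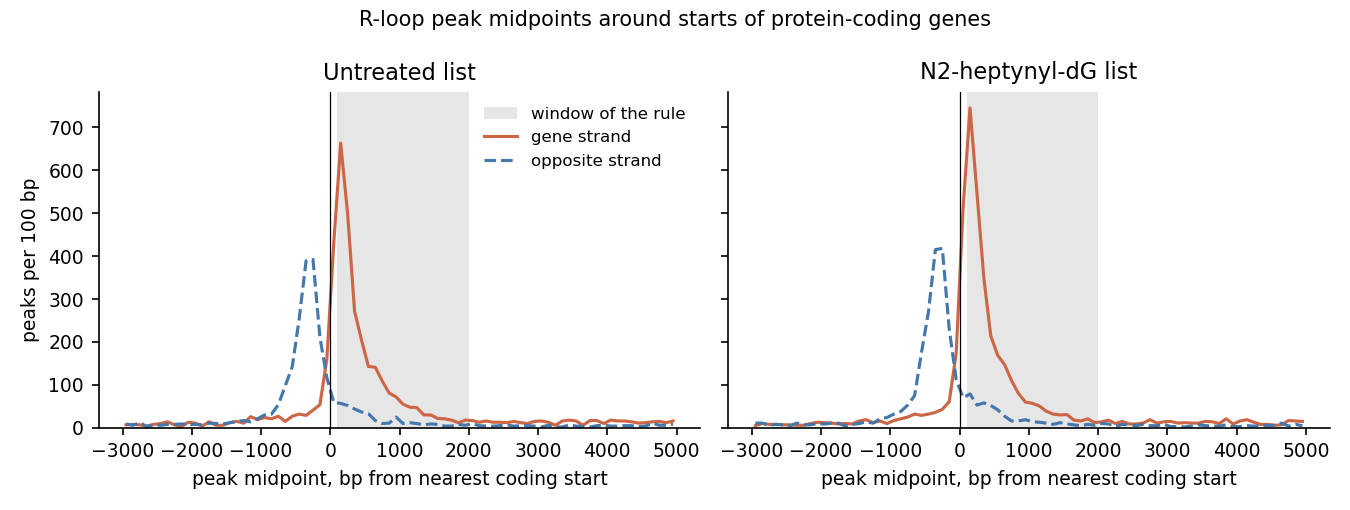
Number of R-loop peak midpoints per 100 bp (vertical axis) by distance from the nearest protein-coding start in the direction of the gene (horizontal axis, bp), for the untreated list (left) and the N2-heptynyl-dG list (right). The solid line is the gene strand, the dashed line the opposite strand, and the grey band the window of the rule, which ends at 2000 bp. The gene-strand line peaks at 663 and 745 just downstream of the start, and the opposite-strand line upstream of it.

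Many members were not detached from the start. Their upstream border lay at a median of 16.5 bp upstream of the start in the untreated list and 25 bp in the treated one, and 1296 of 2450 (52.9%, 50.9 to 54.9%) and 1465 of 2701 (54.2%, 52.4 to 56.1%) reached back over it. The downstream border lay at a median of 671.5 and 670 bp. The position covered by most members was 350 bp, under 77.6% of untreated and 79.7% of treated members. Only 2.78% and 2.52% ended beyond 2000 bp. Peak borders moved in steps of 250 bp, so a border is known no more finely than that.

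The gene record starts at the most upstream annotated transcript, which is often not the principal one. The start of the Ensembl canonical transcript, 1 representative transcript per gene, lay within 100 bp of the gene record start for 65.8% of untreated and 65.7% of treated members. Of members in genes with a canonical transcript, 1657 of 2437 untreated (68.0%, 66.1 to 69.8%) and 1870 of 2691 treated (69.5%, 67.7 to 71.2%) covered the canonical start. When the same intervals were laid on coding genes without a member, 45.2% and 46.2% covered it. The midpoint was upstream of the canonical start in 10.6% and 10.2% of members, against 25.3% and 25.5% for the other genes at equal distances. About as many members as not, 52.9% and 54.4%, had their midpoint between 1000 bp upstream and 100 bp downstream of another annotated transcript start on the same strand. For any annotated start on the strand of the peak, the share was 30.3% and 31.7% over all peaks. It was 36.4% and 33.9% for opposite-strand peaks of the window.

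Within the canonical transcript the midpoint was most often in the first intron. It was there in 1163 untreated members (47.5%, 45.5 to 49.5%) and 1267 treated members (46.9%, 45.0 to 48.8%), against 43.8% and 43.5% in other genes at the same distances. Untranslated sequence of the first exon held 25.6% and 25.9% of midpoints, compared with 13.0% and 13.3% in the other genes. Coding sequence of the first exon held 12.8% (11.6 to 14.2%) and 14.0% (12.8 to 15.4%), compared with 11.4% and 11.6%. Later exons and introns together were rare, with each class at or under 1.14% of members. The first exon itself was similar in length in genes with a member in either list, median 177 bp, and in those with none, median 182 bp.

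**Figure D2:**
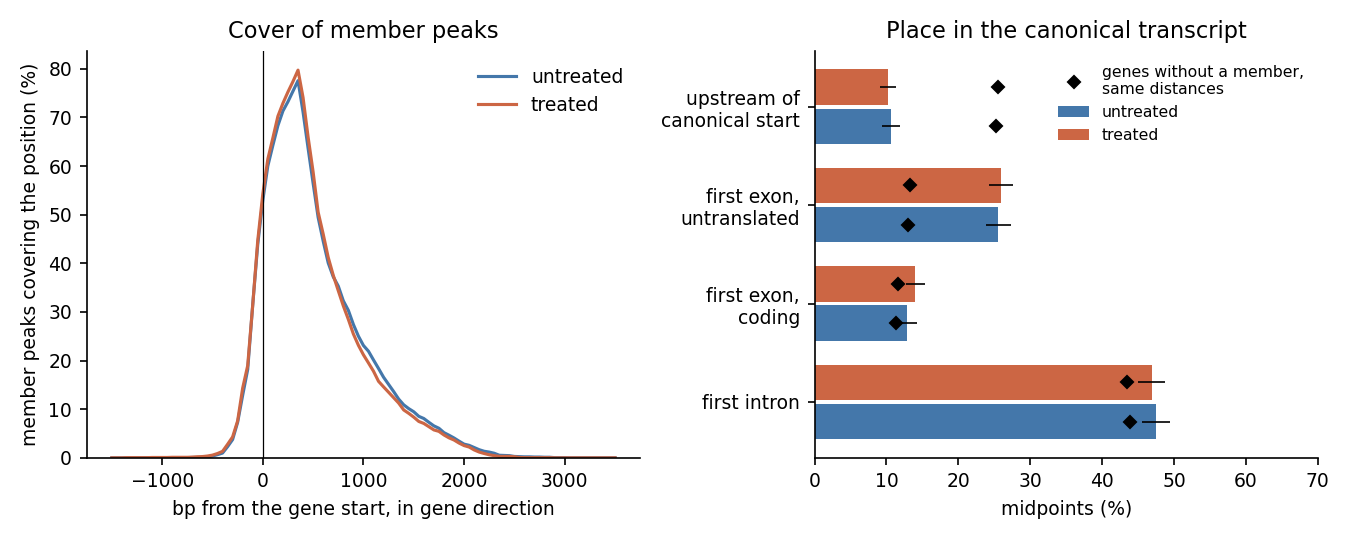
Left, share of member peaks (%) that cover each position by distance from the gene start (bp), for the untreated and treated lists, with the highest value of 77.6% and 79.7% at 350 bp. Right, share of midpoints (%) in 4 places of the canonical transcript, with bars for members, lines for 95% Wilson intervals and diamonds for genes without a member at the same distances, where the untranslated part of the first exon is over-represented and the region upstream of the canonical start under-represented among members.

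The first 5′ splice site is the boundary of the first exon and intron. Midpoints lay on either side of it, at a median of 7 bp (untreated) or 3.5 bp (treated) downstream of it, with quartiles of -165.2 and 184.2 bp and of -165 and 159.8 bp. Members spanned this site in 1664 of 2388 cases (69.7%, 67.8 to 71.5%) and in 1897 of 2630 cases (72.1%, 70.4 to 73.8%), whereas the same intervals spanned it in 49.4% and 50.4% of genes without a member. The gap was smaller where the starts coincided. Among genes whose canonical start was within 100 bp of the gene record start, members spanned the splice site in 73.6% (71.4 to 75.7%) and 76.8% (74.7 to 78.7%), and the same intervals did so in 72.9% and 75.2% of other genes. The intervals of the members include the values of the other genes in both lists. In 1 narrower group, treated members of 500 bp that reached over such a start, the share was 88.0% (85.0 to 90.5%) against 82.2%, and in the untreated list the corresponding values were 84.3% (80.9 to 87.1%) and 82.0%.

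Members were narrower than R-loop peaks in general. Their median width was 500 bp with an upper quartile of 750 bp in both lists, against a median of 750 bp over all peaks. Peaks of 500 bp made up 55.6% of untreated and 54.2% of treated members, compared with 41.1% and 42.5% of all peaks. Opposite-strand peaks of the same window were as narrow, with the same quartiles and 56.78% and 54.21% at 500 bp. Sense promoter peaks had 48.25% and 48.23% at that width. The widest members found in both lists reached 3250 bp at AC005606.1, 3000 bp at SLIT2 and 2500 bp at WDR74, SRSF3 and FOXD4L2 in untreated cells. At AC005606.1 (chr16:2030251-2033500) the borders were the same in both lists. This peak reached past both ends of the gene record (chr16:2031633-2032918), which has no canonical transcript. At SRSF3, which encodes a splicing factor of the SR family, the peak was 2500 bp wide in both (chr6:36561751-36564250) and ran from 379 bp upstream to 2120 bp downstream of the start. At SLIT2 the peak of untreated cells was 3000 bp wide and that of treated cells 1500 bp with the same upstream border, 28 bp downstream of the start. At WDR74, a ribosome biogenesis factor, the widths were 2500 and 2250 bp, and the untreated midpoint lay 1163 bp upstream of the canonical start. FOXD4L2, at 2500 and 2000 bp, belongs to a family of near-identical copies, so its assignment among the copies is uncertain.

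Most members were found under both conditions. Of untreated members, 1924 of 2450 (78.5%, 76.9 to 80.1%) overlapped a treated peak on the same strand by at least 1 bp, and 74.6% of all untreated peaks did so. Of treated members, 1931 of 2701 (71.5%, 69.8 to 73.2%) overlapped an untreated peak, beside 69.2% of all treated peaks. Since narrow peaks are shared less often and members are narrow, the comparison was repeated within widths. At 500 bp, 70.5% of untreated members and 60.8% of other peaks were shared, a difference of 9.68 points (6.63 to 12.7). At 750 bp the values were 83.9% and 71.9%, a difference of 12 points (8.24 to 15.4), and at 1000 bp and over 94.3% and 85.9%, a difference of 8.39 points (5.7 to 10.5). In the treated list the differences were 6.96 points (3.9 to 9.99), 13.5 points (9.86 to 16.9) and 5.16 points (2.31 to 7.52). The intervals excluded 0 in every width class of both lists.

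**Figure D3:**
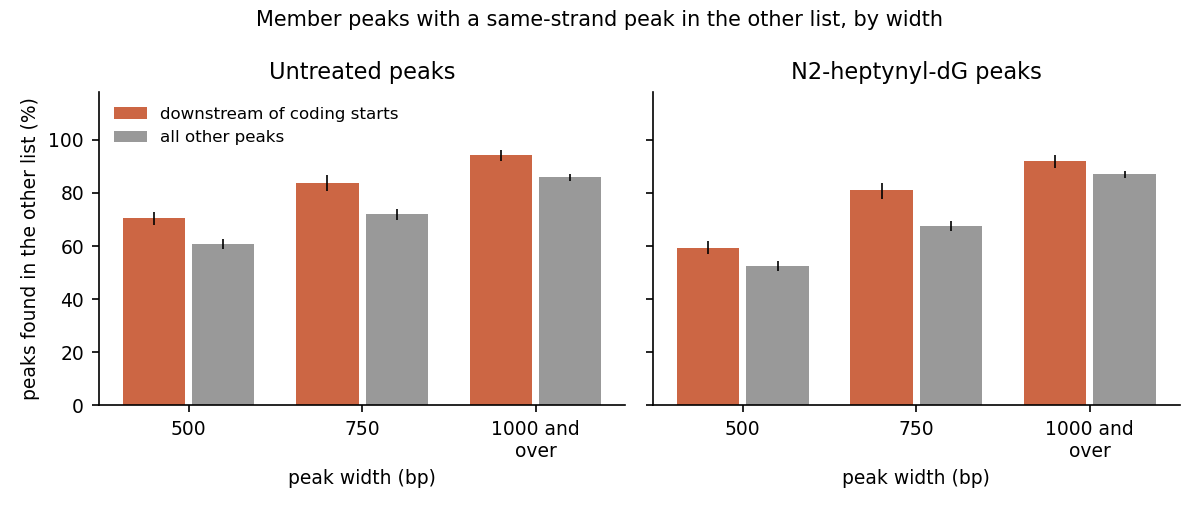
Share of peaks with a same-strand peak in the other list (%, vertical axis) by peak width (bp, horizontal axis), for untreated (left) and N2-heptynyl-dG peaks (right). Bars are members and all other peaks, lines are 95% Wilson intervals for counting error. Members lie above other peaks in each class, from 70.5% against 60.8% at 500 bp to 94.3% against 85.9% at 1000 bp and over in the untreated list.

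Sharing also varied with distance from the start. Of untreated members with a midpoint up to 250 bp from the start, 82.0% (79.4 to 84.3%) were shared, and of those beyond 1500 bp, 65.9% (55.7 to 74.9%). The treated values were 74.4% (71.7 to 77.0%) and 61.5% (51.5 to 70.6%). Compared with the sets nearest in position, the untreated share of members was below that of sense peaks at the promoter itself (84.6%, 82.0 to 86.8%), while in the treated list the intervals overlapped (75.5%, 72.7 to 78.1%). Sense peaks deeper in coding genes had lower shares, 63.4% (61.0 to 65.7%) and 59.6% (57.3 to 61.9%). Those sets differ from members in width too.

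The partner of a shared member mostly fell in the same window, which overlap with a member by itself makes likely. It was itself a member for 1790 of 1924 untreated peaks (93.0%), a sense promoter peak for 123 and neither for 11. For treated peaks the numbers were 1793, 129 and 9 of 1931. Both borders were identical for 1053 pairs, 54.7% of shared untreated and 54.5% of shared treated members. Among the 1786 pairs that were members at the same gene in both lists, the upstream border was the same in 1443 (80.8%), further upstream in the treated list in 203 (11.4%, 9.98 to 12.9%) and further downstream in 140 (7.84%, 6.68 to 9.18%). The downstream border was the same in 1255 (70.3%), further downstream in 274 (15.3%, 13.7 to 17.1%) and further upstream in 257 (14.4%, 12.8 to 16.1%). Border shifts were thus about as frequent in either direction at the downstream end, while at the upstream end extension in the treated list was the more frequent.

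Members found in 1 list only numbered 526 in untreated cells and 770 in treated cells, 21.5% and 28.5% of members beside 25.4% and 30.8% of all peaks. The nearest same-strand peak of the other list was a median of 60625 bp away for the untreated-only and 75875 bp for the treated-only members. It was within 1000 bp for 37 and 42 of them, and 15 and 18 bordered it directly. KBTBD6, an adaptor of a ubiquitin ligase, is such a case. Its untreated member (chr13:41706001-41706500) and its treated member (chr13:41706501-41707000) abutted without overlapping and had midpoints 688 and 188 bp from the start. For 201 untreated-only and 343 treated-only members, in contrast, the nearest peak was more than 100000 bp away.

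The widest of these unshared members were in genes of several kinds. In the treated list alone, WNK4, a kinase of salt transport, and PUS7, a pseudouridine synthase, each held a peak of 1750 bp, EIF4G3, a scaffold of translation initiation, and PTBP1 one of 1500 bp. The EIF4G3 peak had a GC skew of -0.120 and 4 motifs on the strand opposite to the gene, and the PTBP1 peak a skew of 0.061 and 2 motifs on the gene strand. In the untreated list alone, NDUFV1 and AGBL5, a tubulin deglutamylase, held peaks of 1750 bp, CDC73 and ADAM32 1500 bp, and FDX1, a mitochondrial ferredoxin, 1250 bp. The CDC73 peak had a skew of 0.208. No peak height was available, so how far any of these peaks stood above the calling threshold is unknown.

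Members were richer in G and C than R-loop peaks as a whole and carried little GC skew. The median GC content was 61.8% in untreated and 63.0% in treated members, against 56.2% and 57.6% over all peaks. The ratio of observed to expected CpG, which is close to 1 where CpG has not been lost by methylation, had medians of 0.774 and 0.783, against 0.613 and 0.644 over all peaks and 0.410 and 0.437 in sense peaks deeper in genes. GC skew, which is (G - C)/(G + C) counted on the peak strand, had a median of 0.011 (0.007 to 0.017) in untreated and 0.002 (-0.003 to 0.007) in treated members. It was above 0 in 53.7% (51.7 to 55.7%) and 50.4% (48.6 to 52.3%) of members. Sense promoter peaks had median GC skews of -0.011 and -0.024, opposite-strand peaks of the same window -0.056 and -0.073, and deep sense peaks 0.015 and 0.000. Members did have more T than A on the peak strand. Their median AT skew, (A - T)/(A + T), was -0.096 and -0.098, against -0.054 and -0.063 over all peaks. It was -0.062 and -0.061 in sense promoter peaks and -0.058 and -0.076 in deep sense peaks. The high GC and CpG were shared with the sets nearest in position. Median GC was 62.0% and 62.5% in sense promoter peaks and 62.5% and 63.3% in opposite-strand peaks, and median CpG ratios were 0.765 and 0.767 and 0.760 and 0.768.

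Coding genes without a member had more skew at the same place. With 500-bp windows centred at the distances of the members, the 16161 eligible genes without a member had a median GC content of 58.5% and 58.8%, lower than the members' 62.6% and 63.6%. Their median skew was 0.045 and 0.046, above the members' 0.012 and 0.000, and it was positive in 64.0% of windows at the distances of either list, against 53.7% and 49.8% of members. The difference was also present at equal GC content. Among windows of 60 to 70% GC, the median skew was 0.003 in untreated members, -0.004 in treated members and 0.049 and 0.048 in the other genes, and the share above 0 was 50.5% (47.5 to 53.4%) and 47.5% (44.8 to 50.3%) in members against 65.1% and 65.0%. Among windows of 70 to 80% GC, the shares were 42.0% (37.4 to 46.8%) and 41.2% (37.2 to 45.2%) against 64.8% and 64.9%. At 50 to 60% GC they were closer, 60.3% (56.6 to 63.8%) and 58.9% (55.1 to 62.6%) against 63.2% and 63.5%, and there the intervals of the untreated members included the value of the other genes. Members of the untreated list only were an exception. Those of 500 bp had a median skew of 0.047, positive in 65.2% (60.4 to 69.7%), and so were not below the other genes. Treated-only members of 500 bp had 0.013 and 54.7% (50.7 to 58.7%). The other genes were not matched to the distances of these 500-bp members.

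**Figure D4:**
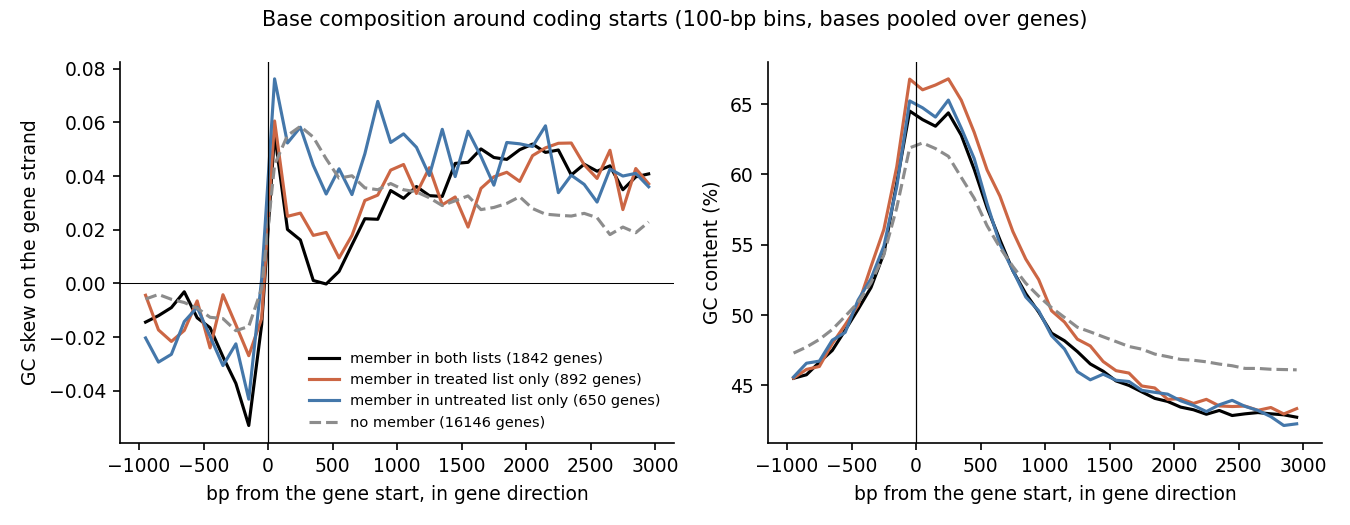
GC skew on the gene strand (left) and GC content in % (right) in 100-bp bins by distance from the gene start (bp), with bases pooled over genes with a member in both lists, in the treated list only, in the untreated list only, and in neither. At 400 to 499 bp the skew was -0.0002 in genes of both lists, 0.0190 in treated-only, 0.0333 in untreated-only and 0.0464 in genes without a member. No error is drawn.

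The profile around the start placed this dip. Just after the start, at 0 to 99 bp, the pooled skew rose in genes with members as in the others, to 0.0605 for genes in the treated list only and 0.0762 for genes in the untreated list only. From there it fell to -0.0002 at 400 to 499 bp in genes with a member in both lists, the stretch under many of the peaks, and stayed at 0.0464 in genes without one. Genes of the untreated list only had little of this dip. Their skew was 0.0333 at 400 to 499 bp, and 0.0427 at 500 to 599 bp, where genes without a member had 0.0392. Pooled GC content at 200 to 299 bp was 66.8% in treated-only and 65.3% in untreated-only genes.

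G-quadruplex motifs followed the same asymmetry. Whole members held a motif on the peak strand in 617 of 2449 untreated (25.2%, 23.5 to 27.0%) and 728 of 2700 treated cases (27.0%, 25.3 to 28.7%), and on the opposite strand in 708 (28.9%, 27.2 to 30.7%) and 869 (32.2%, 30.5 to 34.0%). Over all peaks the shares were 18.2% and 19.3% on the peak strand and 23.6% and 26.6% on the opposite strand. Sense promoter peaks were near the members on the peak strand (23.95% and 25.7%) and higher on the opposite strand (32.8% and 38.3%). Opposite-strand peaks of the window had 19.8% and 18.2% on their own strand and 37.3% and 44.2% on the other. In 500-bp windows, 18.2% of untreated and 19.8% of treated members held a motif on the gene strand, fewer than the 24.3% and 24.7% of genes without a member at the same distances. On the other strand the order was reversed, with 22.8% and 25.7% of members against 17.1% and 17.3%. Within 60 to 70% GC the gene-strand shares were 19.7% and 19.8% in members and 34.0% in the other genes at the distances of either list. Members with many motifs on the peak strand, such as SLC38A2, PABPN1 and BUB3 with 4 each, were thus not typical. BUB3 had a peak of 1000 bp in untreated cells (chr10:124913649-124914648) and of 500 bp in treated cells.

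The highest skew among members of both lists was 0.423 at MBD3L3, followed by 0.333 at NOL8, which encodes a nucleolar protein, 0.312 at ZNF146 and 0.307 at ENSG00000284989, a record that shares its start with the histone demethylase gene KDM4A. The first belongs to a set of closely similar genes on chromosome 19, so its mapping is uncertain. At NOL8 the 500-bp peak had the same borders in both lists (chr9:95087277-95087776) and held 0 motifs on either strand. At ENSG00000284989 the peak held 3 on the gene strand.

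The base composition of members of 1 list only is given here as a description of the peaks in each list. Untreated-only members had a median GC content of 60.0% and treated-only members 65.0%, while members of both lists had 62.2% in either list. The median skew was 0.049 in untreated-only members, positive in 347 of 526 (66.0%, 61.8 to 69.9%). In treated-only members it was 0.008, positive in 402 of 770 (52.2%, 48.7 to 55.7%). In members of both lists the median skew was 0.002 and 0.000. Motifs on the strand opposite to the gene were present in 22.2% (18.9 to 26.0%) of untreated-only and 33.8% (30.5 to 37.2%) of treated-only members, and on the gene strand in 22.4% (19.1 to 26.2%) and 26.9% (23.9 to 30.1%). Peaks that were not members differed in the same direction, with GC medians of 51.7% and 56.2% and skew medians of 0.012 and -0.028 for untreated-only and treated-only peaks. Each list is 1 set of calls, so a difference between conditions and a difference between libraries in base composition or depth cannot be told apart.

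At the level of genes, 2492 of 19545 eligible protein-coding genes (12.8%), those with a record long enough to hold at least the near end of the window, had a member in the untreated list. In the treated list 2734 (14.0%) did. Both lists held a member at 1842 genes (9.42%), the treated list only at 892 (4.56%), the untreated list only at 650 (3.33%), and either list at 3384 (17.3%). Those in both lists were 73.9% of the untreated and 67.4% of the treated genes. Some of the genes of 1 list had a peak elsewhere at their start in the other. Of genes with a member in untreated cells only, 129 had a sense promoter peak in treated cells, and 133 genes had the reverse.

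Genes with a member in either list were longer, with a median of 34750 bp against 27280 bp in genes without. They more often had another coding start within 1000 bp upstream on the opposite strand, in 424 of 3384 cases (12.5%, 11.5 to 13.7%) against 1253 of 16161 (7.75%, 7.35 to 8.18%). An opposite-strand R-loop peak with its midpoint between 2000 bp upstream and 100 bp downstream of the start was present for 17.9% (16.7 to 19.3%) of them among untreated peaks and 18.3% (17.1 to 19.7%) among treated peaks, against 8.27% and 8.80% of genes without a member. The share of genes with a member ranged over chromosomes from 8.26% on chromosome 19 to 16.2% on chromosome 6 in the untreated list, and from 8.89% on chromosome 16 to 18.8% on chromosomes 6 and 13 in the treated list. On chromosome 13 it was 44 genes of 320 in untreated and 60 in treated cells.

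Cytosolic ribosomal protein genes, which are short and highly transcribed, had the largest share with a member among the 17 gene lists. Of 87 such genes, 48 (55.2%, 44.7 to 65.2%) had an untreated member and 50 (57.5%, 47.0 to 67.3%) a treated one, 44 of them both, against 12.8% and 14.0% of all eligible genes. That background counts every eligible coding gene, whether or not it is transcribed in these cells, and was not matched for expression. The ribosomal protein list also counts the related genes RPL7L1, RPL22L1 and RPL26L1, each with a member in both peak lists. RPL26 and RPS4X held identical peaks of 2000 bp in both lists, with midpoints 755 and 768 bp from the start. RPLP0 had an untreated peak of 2000 bp and a treated one of 1250 bp, and RPS3 from 2000 to 1500 bp. The genes counted in 1 list only were RPL5, RPL6, RPS18 and RPS20 among untreated members and RPL18, RPL23A, RPL28, RPL35A, RPS19 and RPS21 among treated members. Apart from RPL6 and RPS21, the peak of each overlapped a peak of the other list that did not count as a member at that gene.

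Genes of RNA processing and translation also lay above the background. Of 75 genes for SR proteins, hnRNPs and spliceosome subunits, 28 (37.3%, 27.3 to 48.7%) and 26 (34.7%, 24.9 to 46.0%) had a member. Beside SRSF3, the widest were identical peaks of 1500 bp in both lists at HNRNPA1, SF3B3 and SRSF2, and SRSF2 held 3 motifs on the peak strand. Of 54 DEAD and DEAH helicase genes, 15 (27.8%) and 14 (25.9%) had one. DHX9, a helicase that unwinds RNA-DNA hybrids, had an untreated peak of 1500 bp and a treated one of 1250 bp, and DHX8, a splicing helicase, a peak of 750 bp in untreated cells only. Of 74 genes in the translation factor list, 20 (27.0%) and 23 (31.1%) had a member, with identical peaks of 1750 bp at the elongation factor EEF2. That list also counts enzymes that modify such factors, among them the kinases EIF2AK3 and EIF2AK4 and the methyltransferases EEF1AKMT1 and EEF1AKMT4.

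Genes for handling R-loops and damaged DNA were also above the background, which was not matched for expression. Of 32 R-loop processing genes, 9 (28.1%, 15.6 to 45.4%) and 10 (31.3%, 18.0 to 48.6%) held a member, 8 in both lists. FANCM, a translocase of the Fanconi anaemia pathway, had the same 750-bp peak in both, and XRN2, the nuclear exonuclease of transcription termination, one in untreated cells only. SMN1 also held one in treated cells, 1000 bp wide, but has a near-identical copy. Of 47 genes for the replication fork and the damage response, 16 (34.0%, 22.2 to 48.3%) had a member in each list, 12 in both. ATR, the kinase of replication stress, had an untreated peak of 500 bp and a treated one of 1000 bp, and RAD50, of the MRE11 complex, 1500 and 1250 bp. Of 33 genes for translesion synthesis and nucleotide excision repair, 11 (33.3%, 19.8 to 50.4%) had a member in each list, 10 of them in both. POLH, encoding polymerase eta, kept a 1000-bp peak, and REV3L, the catalytic subunit of polymerase zeta, had 1000 and 750 bp, with a skew of -0.155 and 4 motifs on the opposite strand in the untreated peak.

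Stress genes and cell cycle regulators were also above the background of 12.8% and 14.0%, which was not matched for expression. Of 77 genes in the heat shock protein list, which also counts BAG genes and the transcription factor HSF2, 22 (28.6%) and 26 (33.8%) had a member. HSPA1A and HSP90AB1 had identical peaks of 1750 and 1500 bp, although HSPA1A has a near-identical neighbour and its assignment is uncertain. Of 38 immediate early genes, 12 (31.6%) and 13 (34.2%) did, with BTG1, an antiproliferative gene, at 1500 bp in both and JUN going from 1500 to 750 bp. IER5L went from 750 to 1500 bp. Of 71 cell cycle regulators, 18 (25.4%) and 21 (29.6%) had one, with CDK1 at 1250 bp in both. Cytoskeleton genes were closer to the background, with 11 of 60 (18.3%, 10.6 to 29.9%) and 14 (23.3%, 14.4 to 35.4%), among them TUBA1B at 1500 bp in both.

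Several lists lay near the background of 12.8% and 14.0%. Chromatin regulators had 16 and 21 of 112 (14.3% and 18.8%), mitochondrial ribosomal proteins 13 of 76 (17.1%) in each list, proteasome subunits 7 of 48 (14.6%) in each, and zinc-finger genes of chromosome 19 had 37 and 39 of 251 (14.7% and 15.5%). Developmental transcription factors had 23 and 28 of 206 (11.2%, 7.56 to 16.2%, and 13.6%, 9.57 to 18.9%), and genes of Wnt, Notch, Hedgehog and TGF-beta signalling 8 and 11 of 93 (8.60%, 4.42 to 16.1%, and 11.8%, 6.73 to 20.0%). Among chromatin regulators, KMT5C, a histone H4 methyltransferase, had a skew of -0.452 and 3 motifs on the opposite strand in its untreated peak. In the signalling list, ID4, an inhibitor of basic helix-loop-helix factors, had an untreated peak of 500 bp and a treated one of 2250 bp. Among the transcription factors, SOX2 went from 1500 to 750 bp. The differences between the lists within any of these groups were a few genes and could not be set against a spread between samples.

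**Figure D5:**
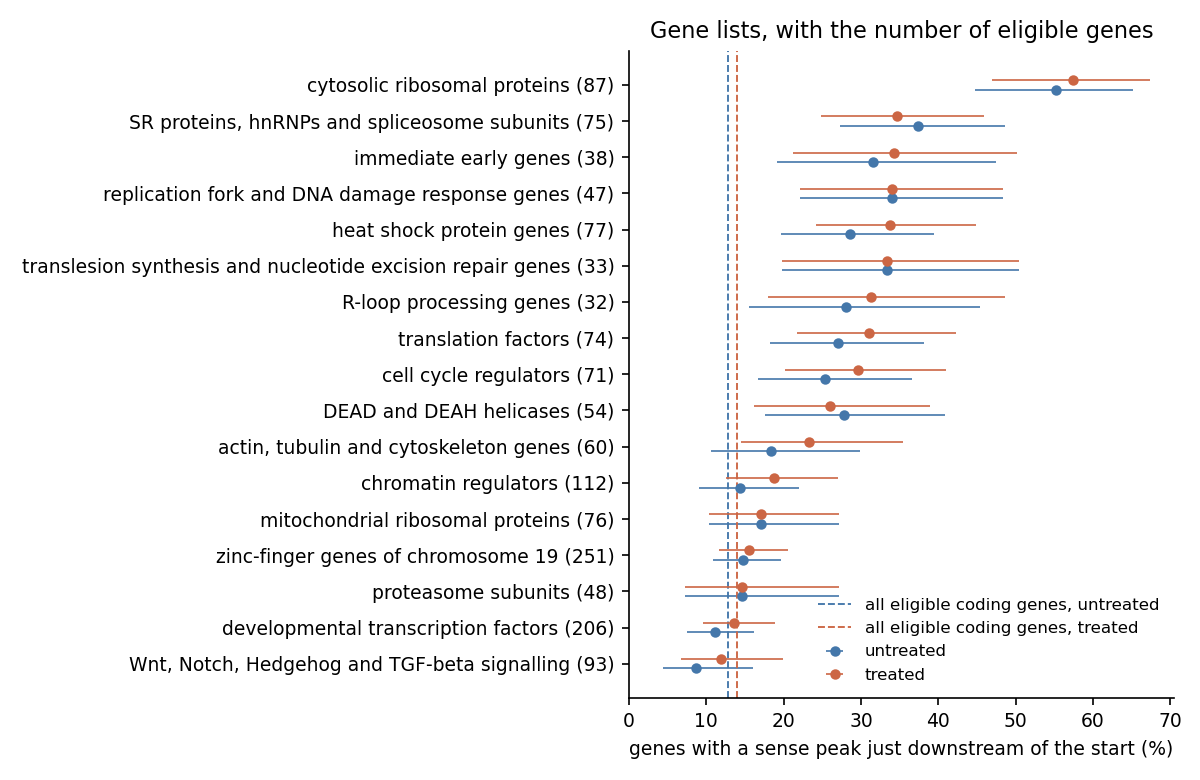
Share of eligible genes with a member (%, horizontal axis) in 17 gene lists, with the number of eligible genes in brackets. Points are the untreated and the treated list, lines are 95% Wilson intervals for counting error, and dashed lines are all eligible coding genes (12.8% and 14.0%). Cytosolic ribosomal protein genes stand at 55.2% and 57.5%, and signalling genes at 8.60% and 11.8%.

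Of the 7 genes that the study itself showed or manipulated, 3 held an untreated member and 4 a treated one. These were chosen by the study, in part from these samples. GAPDH, the glycolytic enzyme, had a peak of 1500 bp in untreated cells that began 177 bp upstream of the start, and of 1250 bp in treated cells that began 73 bp downstream, with the same downstream border at 1322 bp. DDX5, an RNA helicase, had the same 750-bp peak in both lists with its midpoint at 1940 bp, near the far edge of the window. KBTBD6 had the abutting pair described above. ENTPD5, a nucleotide hydrolase of the endoplasmic reticulum, had a 500-bp peak in treated cells only, with its midpoint at 221 bp. CHERP, a regulator of calcium release and splicing, had a treated peak centred 96 bp before the start, hence not a member. CLSPN, the checkpoint adaptor claspin, had a treated peak far downstream at 42683 bp and no member. DDX23, a spliceosomal helicase, had no peak on its own strand at the gene in either list. For these 7 genes the opposite strand was not searched.

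A second member at the same gene was rare. It was present at 26 genes for untreated and at 34 for treated cells, and 6 of these had 2 members in both. SLC25A6, which lies in the pseudoautosomal region, is not in any of these counts, because its peaks were assigned to its X and Y copies. GATA6, an endodermal transcription factor, held the same pair in both lists, peaks of 1250 and 500 bp at 431 and 1556 bp from the start, the second in a later coding exon. At BAMBI, a pseudoreceptor of the TGF-beta family, both untreated members of 750 bp overlapped 1 treated peak of 1500 bp. CTSK, which encodes cathepsin K, showed the opposite, with 2 treated members of 1000 bp on 1 untreated peak of 1500 bp. H2AC6, a histone H2A gene, also held a pair in both lists, and its second untreated midpoint lay beyond the end of the canonical transcript. MEIG1 held one in the untreated list, and LDHA, a lactate dehydrogenase gene, WNK4 and ARL9 in the treated list. Both members of WNK4 were found in treated cells alone.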

How the data were processed

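For the deposited lists, the authors ran FastQC and Trim Galore on the spKAS-seq reads, used Bowtie2 at default settings for alignment to hg19, sorted with samtools, marked and removed duplicates (Picard), and used 2 replicates to identify R-loops. A list has 4 columns that give a peak's position and strand, without any measure of its strength. Each list is attached to replicate 1 and was taken as the list of its condition, although nothing in the list says so. Peak borders depend on the bins of the peak calling, since shared members differed from their partners by multiples of 250 bp in 1924 of 1924 cases. Reads, inputs and signal tracks were not used here, so depth is unknown and no leave-one-out analysis could be made.

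Members were found by midpoint against GENCODE release 44 mapped to GRCh37, with 20176 protein-coding records. Sense promoter peaks (1000 bp upstream to 100 bp downstream), opposite-strand peaks of the window and sense peaks deeper in genes were measured alongside. Peaks of which over 50% was masked, 1 member in each list, were left out of base composition. Motifs were counted on both strands without overlap. Shares carry Wilson intervals and differences of shares Newcombe intervals. Scripts ran in Python 3.11.15 with pysam 0.24.0 and samtools 1.23.1 for sequence, pandas 2.3.3 and numpy 2.4.6 for tables, scipy 1.17.1 for intervals and matplotlib 3.10.9 for figures. On simulated lists 167 of 167 planted members and 0 others were selected, and 94 simulated overlaps were counted both here and by bedtools 2.31.1.

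The members and gene lists were chosen with earlier results of these data known. The genes named were the 5 widest members in both lists and in each list alone, the 4 with most motifs and the 4 with highest skew among members in both lists, up to 5 genes with 2 members per list, the genes the study shows, and up to 4 genes per list, widest first. DHX8, XRN2, ATR, REV3L, SOX2 and the ribosomal protein genes with a member in 1 list only fall outside this rule and were named after their values were seen. Genes named only to show what a list counts also fall outside it. Sequences were read from the GRCh37 genome. Some members that the rule names are not reported here.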

Additional observations from a re-analysis of the deposited data

How the results depend on the processing

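Of 58 alternative values for 16 results, 30 moved beyond the counting interval, or for a number of members by more than 1.5 times, and 28 did not. A change of sign could be counted only for skew, where the interval excluded 0, and 0 were counted. It says nothing about the other results. Member counts (2450 and 2701) were 1159 and 1241 with the whole peak downstream of the start, 354 and 439 on the opposite strand, 1088 and 1237 for peaks of at least 750 bp, and 1153 and 1231 without members at another annotated start. The shares found in the other list (78.53% and 71.49%) were 75.88% and 68.57% with 50% reciprocal overlap, 88.6% and 85.77% at 750 bp or more, 76.5% and 69.21% without members at another annotated start, and 80.19% for untreated members in the window that ends at 1000 bp. Median GC content was 62.6% and 63.6% in 500 bp at the midpoint and 59.8% and 61.45% without members at another annotated start. The untreated median skew was 0.017 with the canonical start. Motif shares on the peak strand were 42.87% and 44.89% with loops of up to 12 bases and 18.21% and 19.81% in 500 bp. The share of eligible genes with a member was 11.69% and 12.83% with the canonical start and 11.3% and 12.57% to 1000 bp. Members reaching over the start were 67.06% and 68.21% with the canonical start. With alternatives chosen after seeing the data, the median of untreated-only minus treated-only members was 0.034 to 0.042 for skew, and that of treated-only minus untreated-only members 4.2 to 5.8 points for GC content. These describe peaks within 1 list each.

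No paired analysis was possible because there was 1 peak list per condition and no result comes from a test across samples. Leaving out a replicate was not possible for the same reason, and a stricter peak threshold was not run because the lists hold no score. The depth behind the peaks is unknown, which limits what absence from 1 list means.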
